A study of Mus musculus with 20 samples.

Results

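The liver of streptozotocin-diabetic mice fed 0.5% phloridzin for 14 days was compared with the liver of diabetic mice fed the same diet without phloridzin. The groups were taken from the sample titles: 5 arrays of the 0.5% phloridzin diet and 5 arrays of diabetic mice without phloridzin, together 10 of the 20 arrays of the study. The other 10 arrays were 5 of diabetic mice fed 0.1% phloridzin and 5 of untreated mice, and they served as points of reference.

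Phloridzin is a glucoside from apple trees that blocks the sodium-glucose cotransporters SGLT1 and SGLT2. SGLT2 takes filtered glucose back up in the kidney, and SGLT1 takes up glucose in the gut, so inhibition lowers blood glucose without insulin. Streptozotocin (STZ) is a toxin that enters pancreatic beta cells through the glucose transporter GLUT2 and damages DNA. Hepatocytes carry GLUT2 as well, so STZ can act on liver directly as well as through the loss of insulin. Without insulin, liver genes of glucose output and fat oxidation are usually more active and genes of fatty acid synthesis less so.

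The animals were BALB/c males that arrived at an age of 6 weeks. The diabetic groups received 1 intraperitoneal injection of STZ at 185 mg/kg in citrate buffer. Mice whose non-fasting blood glucose was then between 330 and 590 mg/dL were fed AIN93G diet alone (the STZ group), AIN93G with 0.1% phloridzin or AIN93G with 0.5% phloridzin for 14 days. Untreated mice had no injection of STZ or of buffer, so the toxin, the injection and the diabetes cannot be told apart in comparisons with them. Each group consisted of 6 mice, and the liver RNA of 5 of them was hybridised, each mouse to its own array. Blood glucose after the diet was not analysed here.

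The values were linear Affymetrix signals, which were taken as log2(signal + 16). All differences below are on this log2 scale, which understates the change of dim genes, and errors of differences are standard errors from limma with 5 mice per group. They rest on a spread per gene that is shared by all 4 groups. For genes that varied more among diabetic than among untreated mice, such as Cyp4a14 and Hsd3b5, errors and intervals between diabetic groups are therefore too narrow. Array medians ran from 11.2 to 17.1. The ratio of 3 prime to 5 prime Gapdh signal, a measure of RNA integrity, was 0.69 to 0.792 in the STZ group and 0.697 to 0.797 in the 0.5% group. The bioD hybridisation control read 3097 to 3795 in the STZ group, 3200 to 3672 in the 0.5% group and 3997 to 4794 in untreated mice, and replicate 4 of the 0.1% group stood apart at 14070. The label liver was checked on hepatocyte markers, which were bright in both groups. Apoa1, the main HDL protein, had signals of 11700 to 15900 in the STZ group and 14100 to 15300 in the 0.5% group. In bulk liver, fewer cells of a type and less RNA per cell cannot be told apart.

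Mice within each diabetic group differed in how far their liver was from untreated liver. The likeness of a mouse was taken as the mean Pearson correlation of its 12952 gene values with the untreated arrays, as a description. Untreated mice had values between 0.9838 and 0.9863. STZ replicate 1 stood apart from its group at 0.9759, while STZ replicates 2 to 5 lay between 0.9584 and 0.9652. In the 0.5% group, replicates 2 and 4 read 0.9784 and 0.9748, replicate 3 read 0.9638, and replicates 1 and 5 read 0.9513 and 0.9518. The 0.5% group therefore held both the diabetic mouse nearest to untreated liver and mice farther from it than any mouse of the STZ group. This spread was not particular to 0.5%, since the 0.1% group ran from 0.9503 to 0.9774. For the genes that varied most, the difference is also given without single arrays, STZ replicate 1 among them.

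**Figure D1:**
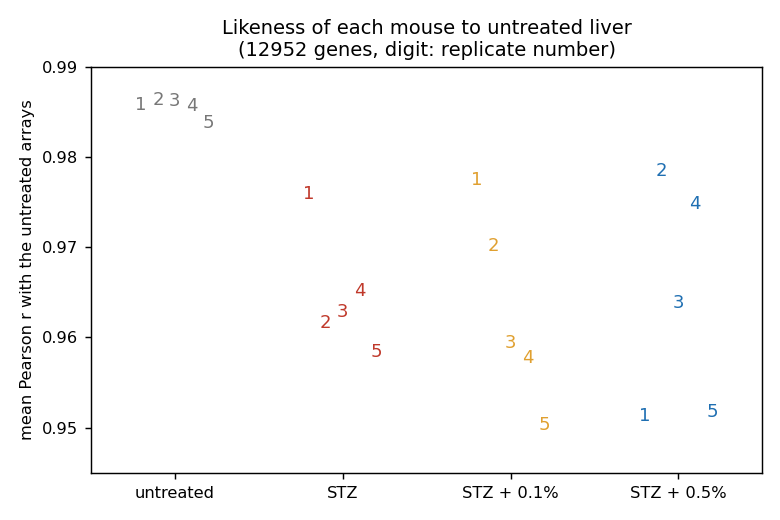
Mean Pearson correlation of each mouse with the untreated arrays over 12952 genes (vertical axis, which does not start at 0), by group. Each digit is the replicate number of 1 mouse. The 0.5% group spans 0.9513 to 0.9784 and the 0.1% group 0.9503 to 0.9774, and STZ replicate 1 at 0.9759 lies above the other STZ mice.

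The first question was whether any liver gene differed between diabetic mice with and without 0.5% phloridzin. No gene passed the test: 0 of 12952 genes (0%) were called at an adjusted p under 0.05 in either direction, and the smallest adjusted p was 0.863 (limma, Benjamini-Hochberg over all genes). At an unadjusted p under 0.05 there were 625 genes (4.83%), with 397 (3.07%) higher and 228 (1.76%) lower in the 0.5% group. The values of the 5 and 5 mice did not overlap for 69 genes (0.533%) that were higher and 41 genes (0.317%) that were lower. The median difference over all genes was 0.02. An ordinary linear model of the 10 arrays without moderation called 0 genes as well, with 616 at an unadjusted p under 0.05.

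These counts come with a stated precision. The median half-width of a gene's 95% interval was 0.30, which is 1.23-fold. For 12744 genes (98.4%) the interval lay wholly within a 2-fold difference in both directions, and for 10617 genes (82%) within 1.5-fold. All folds in this paragraph are of signal + 16, which understates the change of dim genes. These intervals are not adjusted for the number of genes, and they use the spread shared by the 4 groups. The number of arrays limits this precision. Genes that varied widely among diabetic mice had far wider intervals, and many of the best known diabetes genes of the liver were among them. On the scale of signal + 16, the measured difference reached 2-fold for 5 genes. Scd1, Ppp1r3g and Slc30a3 were higher, at 1.06, 1.04 and 1.01, and Bcl6 and St3gal6 were lower, at -1.03 and -1.21. The Ppp1r3g difference was 0.52 without STZ replicate 1. Slc30a3 and St3gal6 were named after their values were seen. With 1 added to the signal in place of 16, dim genes such as Mid1 (1.71), Knstrn (1.61) and Orm3 (-1.74) also passed 2-fold.

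**Figure D2:**
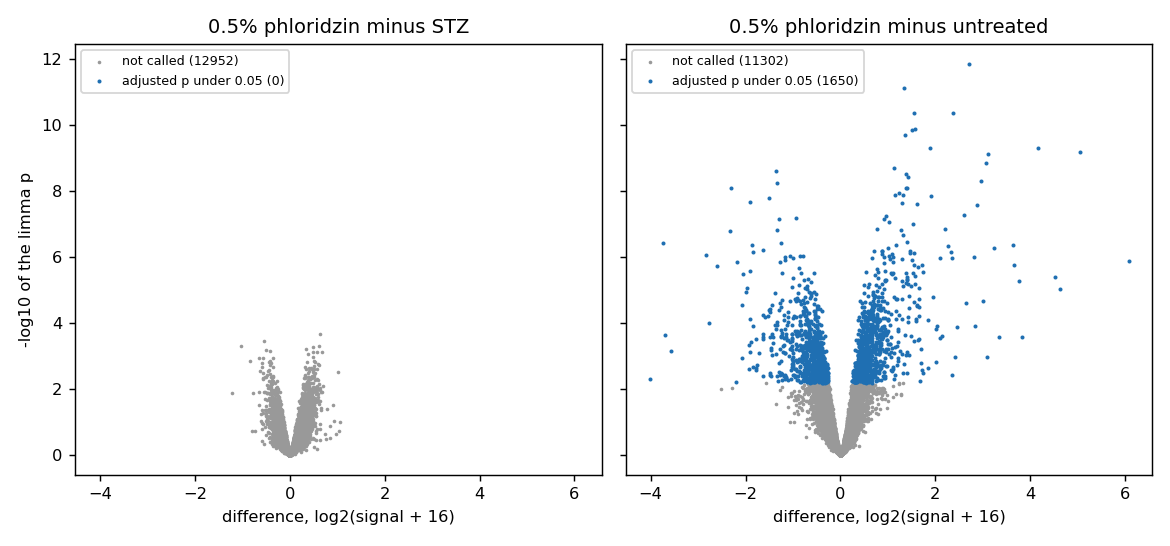
Difference of each gene (horizontal axis, log2 of signal + 16) against -log10 of its unadjusted limma p (vertical axis), for 0.5% phloridzin minus STZ (left) and 0.5% phloridzin minus untreated (right), with 1 point per gene and the same axes. Called genes are blue: 0 on the left and 1650 on the right.

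The transporters on which phloridzin acts were dim in liver. Slc5a1, which encodes SGLT1, had signals of 18.6, 16.3, 18.4, 9.98 and 3.33 in STZ replicates 1 to 5 and 1.56, 13.3, 13, 11.6 and 10.7 in the 0.5% group. These lie at or near the median signal of an array, so little can be read from the difference of -0.16 ± 0.17. Slc5a2, which encodes SGLT2, read 12.9 to 37 in the STZ group and 24.6 to 39.2 in the 0.5% group, a difference of 0.21 ± 0.26. Its 2 probe sets differed in direction, as did those of Slc5a1.

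Slc2a2, which encodes GLUT2, the bidirectional glucose transporter of the hepatocyte, was bright and tightly measured. Its signals were 4220, 3870, 3880, 3980 and 4060 in the STZ group and 4310, 3850, 3820, 4190 and 4440 in the 0.5% group. The groups overlapped over most of their range, and the difference was 0.04 ± 0.07 with a 95% interval of -0.11 to 0.20. Untreated mice read 2920 to 3250, below every mouse of both groups, and Slc2a2 was called higher than in untreated mice in both (0.41 in the 0.5% group, adjusted p = 0.00148, and 0.37 in the STZ group, adjusted p = 0.00273, limma). Of the 9 measured glucose and sugar transporters, 0 were called between the 0.5% and STZ groups, and 6 had a positive difference (median 0.04).

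Targets of p53, a factor that DNA damage activates, were called higher than in untreated mice in both diabetic groups, and none was called between them. Phlda3, a p53 target that restrains the kinase AKT, had signals of 258, 275, 195, 290 and 271 in the STZ group and 206, 248, 302, 309 and 243 in the 0.5% group. Untreated mice read 17.5 to 35.1. The difference between the diabetic groups was 0.02 ± 0.18, with an interval of -0.36 to 0.39, against 2.72 ± 0.18 from untreated mice (adjusted p = 1.82e-08, limma). Of 21 measured p53 targets, 15 were called higher than in untreated mice in the 0.5% group, where 6.54% of all genes were, and 15 in the STZ group, where 6.9% were. Between the 0.5% and STZ groups 0 were called, and 1 was at an unadjusted p under 0.05: Ckap2, a spindle protein, had signals of 29.9, 32.6, 20.4, 38.6 and 28.3 in the STZ group and 54.1, 66.1, 40.2, 44.3 and 35.1 in the 0.5% group (0.47 ± 0.14, unadjusted p = 0.00406, limma).

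No gene of hepatic glucose output was called between the diabetic groups. Pck1, which encodes the cytosolic enzyme that commits oxaloacetate to gluconeogenesis, read 5190, 6290, 5990, 6790 and 6840 in the STZ group and 7500, 4340, 6300, 4080 and 7260 in the 0.5% group. The 0.5% mice lay on both sides of the STZ range, and the difference was -0.12 ± 0.18. G6pc, the phosphatase that releases free glucose, read 2090 to 3780 in the STZ group and 1320 to 4350 in the 0.5% group, with a difference of -0.05 ± 0.24 and an interval of -0.55 to 0.45 (0.23 without 0.5% replicate 4). For both genes the lowest signals of the 0.5% group were those of replicates 2 and 4. Ppargc1a, a coactivator of gluconeogenic and mitochondrial genes, read 64.5, 195, 150, 148 and 176 in the STZ group and 233, 84, 124, 79.8 and 221 in the 0.5% group. It was called higher than in untreated mice in both groups, by 1.43 and 1.46, and the diabetic groups differed by -0.03 ± 0.30 (-0.27 without STZ replicate 1). Of 16 measured gluconeogenesis genes 0 were called, and 14 had a negative difference (median -0.07).

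Insulin-regulated genes were widely spread within both groups. Igfbp1, a secreted binding protein that insulin represses, read 841, 4410, 4610, 3790 and 5720 in the STZ group and 6080, 1510, 5280, 2100 and 9260 in the 0.5% group. STZ replicate 1 was within the untreated range of 654 to 1440, and the lowest 0.5% mice were replicates 2 and 4. The difference was 0.27 ± 0.55, and it was -0.22 without STZ replicate 1. Irs2, the insulin receptor substrate that FoxO factors induce, was dim at 13.9 to 37.2 and 12.9 to 49.5 (0.01 ± 0.28). Foxo3, a FoxO factor, read 399, 260, 276, 492 and 305 in the STZ group and 264, 169, 248, 193 and 355 in the 0.5% group, and it had the smallest p of the insulin signalling list (-0.47 ± 0.17, unadjusted p = 0.0134, limma). Of the 18 measured genes of that list 0 were called and 11 had a positive difference.

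Fatty acid synthesis genes were, on average, higher in the 0.5% group, with large differences between mice and 0 of 18 called. Scd1, the stearoyl-CoA desaturase, had signals of 12600, 4080, 1740, 928 and 1930 in the STZ group and 1830, 12000, 6850, 8820 and 4850 in the 0.5% group. STZ replicate 1 and 0.5% replicate 2 were within the untreated range of 10900 to 13100, and the other mice were below it. The difference was 1.06 ± 0.62, with an interval of -0.23 to 2.34 (unadjusted p = 0.102, limma), and it ranged from 0.67 without STZ replicate 4 to 1.60 without STZ replicate 1.

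Fasn, the fatty acid synthase, read 1170, 380, 369, 308 and 290 in the STZ group and 251, 2060, 574, 1090 and 329 in the 0.5% group. STZ replicates 2 to 5 lay close together, whereas the 0.5% mice ran from below them to above every untreated mouse. The difference was 0.56 ± 0.57 and ranged from 0.15 without 0.5% replicate 2 to 0.91 without STZ replicate 1. Acaca, which makes malonyl-CoA, read 124 to 260 in the STZ group and 107 to 402 in the 0.5% group (0.43 ± 0.32). Srebf1, the sterol and insulin responsive regulator of these genes, read 591 to 1450 and 602 to 1340 (0.16 ± 0.31, and 0.39 without STZ replicate 1), and Mlxipl, the glucose-sensing regulator ChREBP, read 553 to 1020 and 735 to 1170 (0.31 ± 0.16).

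Of the 18 measured genes of insulin-driven fatty acid synthesis, 17 had a positive difference. Their median was 0.163, beside 0.021 over all genes. That median was 0.297 without STZ replicate 1 and 0.055 without 0.5% replicate 2. All 9 measured genes of the pentose phosphate pathway and NADPH supply had a positive difference (median 0.096), and 0 were called. Among them Tkt, the transketolase, read 2670, 2090, 1530, 1950 and 1750 in the STZ group and 1820, 3260, 2890, 2860 and 2500 in the 0.5% group (0.41 ± 0.20, unadjusted p = 0.0556, limma), and its difference was 0.146 as the mean of its probe sets. Me1, the malic enzyme, was high in STZ replicate 1 at 2870 and in 0.5% replicates 2 and 4 at 3400 and 2080, and the other mice of both groups lay between 499 and 1070. Cholesterol synthesis and uptake had 14 of 20 positive differences (median 0.07) and 0 calls.

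Fatty acid oxidation genes leaned the other way, again with 0 calls. Cpt1a, the gate for fatty acid entry into mitochondria, read 2880, 2640, 2780, 2850 and 2780 in the STZ group and 2810, 2300, 2320, 2260 and 2400 in the 0.5% group. All 0.5% mice except replicate 1 lay below every STZ mouse, and the difference was -0.21 ± 0.12 (unadjusted p = 0.0916, limma), or -0.099 as the mean of its probe sets. Cpt2, its partner on the inner membrane, read 1100, 1270, 1320, 1510 and 1470 in the STZ group and 1100, 959, 1120, 1050 and 960 in the 0.5% group (-0.35 ± 0.11, unadjusted p = 0.00417). Cpt2 was called higher than in untreated mice both in the 0.5% group (0.33, adjusted p = 0.0495) and in the STZ group (0.68, adjusted p = 0.000359, limma).

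Cyp4a14, the PPARα-driven omega-hydroxylase, varied widely among the mice of both groups. Its signals were 48.9, 4390, 2710, 2820 and 5870 in the STZ group and 4740, 734, 2490, 807 and 3880 in the 0.5% group, beside 5.8 to 33.1 in untreated mice. STZ replicate 1 was near the untreated mice, and the 0.5% group had no such mouse. The difference was 0.23 ± 0.90 with all mice and -0.945 without STZ replicate 1.

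Of 33 measured PPARα targets in fat oxidation and ketone body synthesis, 7 had a positive difference, with a median of -0.12, and 1 was at an unadjusted p under 0.05. Against untreated mice 9 were called higher and 3 lower in the 0.5% group, where 6.54% and 6.2% of all genes were, and 15 higher and 2 lower in the STZ group, where 6.9% and 6.93% were. The direct comparison of 0.5% with STZ called 0 of the 33. Pdk4, which shuts pyruvate out of the citric acid cycle, read 34.8 to 102 and 45.6 to 129 (0.27 ± 0.28). Fgf21, a fasting hormone of the liver, read 11.1 to 60.6 in the STZ group and 5.31 to 118 in the 0.5% group (-0.01 ± 0.34), and it was called lower than in untreated mice in both groups (-1.97, adjusted p = 0.000825, and -1.96, adjusted p = 0.000753, limma).

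Among 26 genes of bile acid synthesis and transport, 1 was at an unadjusted p under 0.05 (limma). Among 30 genes of amino acid catabolism and the urea cycle, 2 were. These counts are near the 4.83% of all genes, and none of these genes was called. Cyp7a1, the rate-limiting enzyme of bile acid synthesis, read 1090, 1140, 1590, 574 and 800 in the STZ group and 1700, 264, 671, 523 and 1310 in the 0.5% group, beside 37.8 to 145 in untreated mice. Every diabetic mouse of both groups was above the untreated range, and the difference between the groups was -0.41 ± 0.49 (-0.71 without 0.5% replicate 1 and -0.056 without 0.5% replicate 2). Akr1d1, a reductase of the bile acid pathway, was one of the genes whose mice did not overlap: 921, 1080, 1100, 992 and 1120 in the STZ group and 895, 716, 652, 794 and 913 in the 0.5% group (-0.40 ± 0.14, unadjusted p = 0.00856, limma). The 26 genes of bile acid synthesis and transport had 13 positive differences and a median of 0.00.

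Amino acid catabolism and the urea cycle had 25 of 30 negative differences, a median of -0.08 and 0 calls. Hal, which starts histidine breakdown, read 1110, 1520, 1120, 1950 and 1430 in the STZ group and 1200, 938, 720, 1200 and 755 in the 0.5% group, beside 792 to 920 in untreated mice. Its difference was -0.56 ± 0.17 (unadjusted p = 0.00326, limma). It was called higher than in untreated mice in the STZ group (0.68, adjusted p = 0.0098), and in the 0.5% group it differed from untreated by 0.13 (adjusted p = 0.683, limma). Hal was named for its small p between 0.5% and STZ, so this contrast follows in part from the choice, and the direct difference was not called. Kmo, an enzyme of tryptophan breakdown, read 1280 to 2260 in the STZ group and 1170 to 1450 in the 0.5% group (-0.35 ± 0.13, unadjusted p = 0.0136). Asl, the urea cycle lyase, was called higher than in untreated mice in both groups, by 1.54 and 1.87, and the diabetic groups differed by -0.34 ± 0.19.

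Nnmt, which methylates nicotinamide, was among the genes farthest from untreated liver. It read 932, 3070, 2940, 2530 and 3260 in the STZ group and 3330, 591, 3100, 937 and 3160 in the 0.5% group, beside 24 to 65 in untreated mice. STZ replicate 1 and 0.5% replicates 2 and 4 were at 937 or below, and the other mice of these groups were between 2530 and 3330. The difference was -0.38 ± 0.47, and it ranged from -0.71 without STZ replicate 1 to 0.01 without 0.5% replicate 2.

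Male-typical liver genes, which depend on pulsatile growth hormone, were low in most diabetic mice of both groups. Hsd3b5, a male-specific steroid enzyme, read 3500, 539, 137, 65.1 and 21.3 in the STZ group and 11.9, 2960, 416, 1490 and 106 in the 0.5% group, beside 5290 to 6990 in untreated mice. The mice of each group covered a very wide range, and the difference of 0.57 ± 1.28 had an interval of -2.09 to 3.24. It was 1.53 without STZ replicate 1 and -0.18 without 0.5% replicate 2. Elovl3, an elongase of the same class, read 133 to 900 in the STZ group and 46.1 to 3090 in the 0.5% group (0.50 ± 0.90, from -0.19 without 0.5% replicate 2 to 1.22 without 0.5% replicate 1). Against untreated mice, 10 of 15 measured male-biased genes were called lower in the 0.5% group, where 6.2% of all genes were, and 11 in the STZ group, where 6.93% were. Of 13 female-biased genes, 7 were called higher in the 0.5% group, where 6.54% of all genes were, and 8 in the STZ group, where 6.9% were. Between the 0.5% and STZ groups 0 of either list were called, with medians of 0.07 and -0.11. The male-biased median was 0.37 without STZ replicate 1 and -0.15 without 0.5% replicate 2, and the female-biased median was -0.395 without STZ replicate 1 and 0.096 without STZ replicate 2.

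Bcl6, a transcriptional repressor in the growth hormone list, had the largest difference among the genes with the smallest p. Its signals were 231, 290, 417, 275 and 185 in the STZ group and 191, 109, 155, 56.8 and 153 in the 0.5% group. The groups overlapped only through 0.5% replicate 1 at 191 and STZ replicate 5 at 185. The 0.1% group read 305, 233, 238, 235 and 131, and untreated mice read 770, 663, 702, 523 and 782. The difference between 0.5% and STZ was -1.03 ± 0.25, with an interval of -1.54 to -0.51 (unadjusted p = 0.000488, limma), and it was not called.

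Leaving out each of the 10 arrays in turn gave Bcl6 differences between -1.17 and -0.79, and both of its probe sets had the same direction (-0.75 as their mean). It was called lower than in untreated mice in the 0.5% group (-2.31, adjusted p = 5e-06) and in the STZ group (-1.29, adjusted p = 0.00184, limma). Other genes of that axis overlapped between the groups. Cish, an inhibitor that growth hormone induces, read 33.4 to 74.7 in the STZ group and 42.4 to 104 in the 0.5% group (0.37 ± 0.19), and Onecut1, a liver transcription factor, read 10.1 to 119 and 11.4 to 52.2 (-0.45 ± 0.35, and -0.095 without STZ replicate 1).

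**Figure D3:**
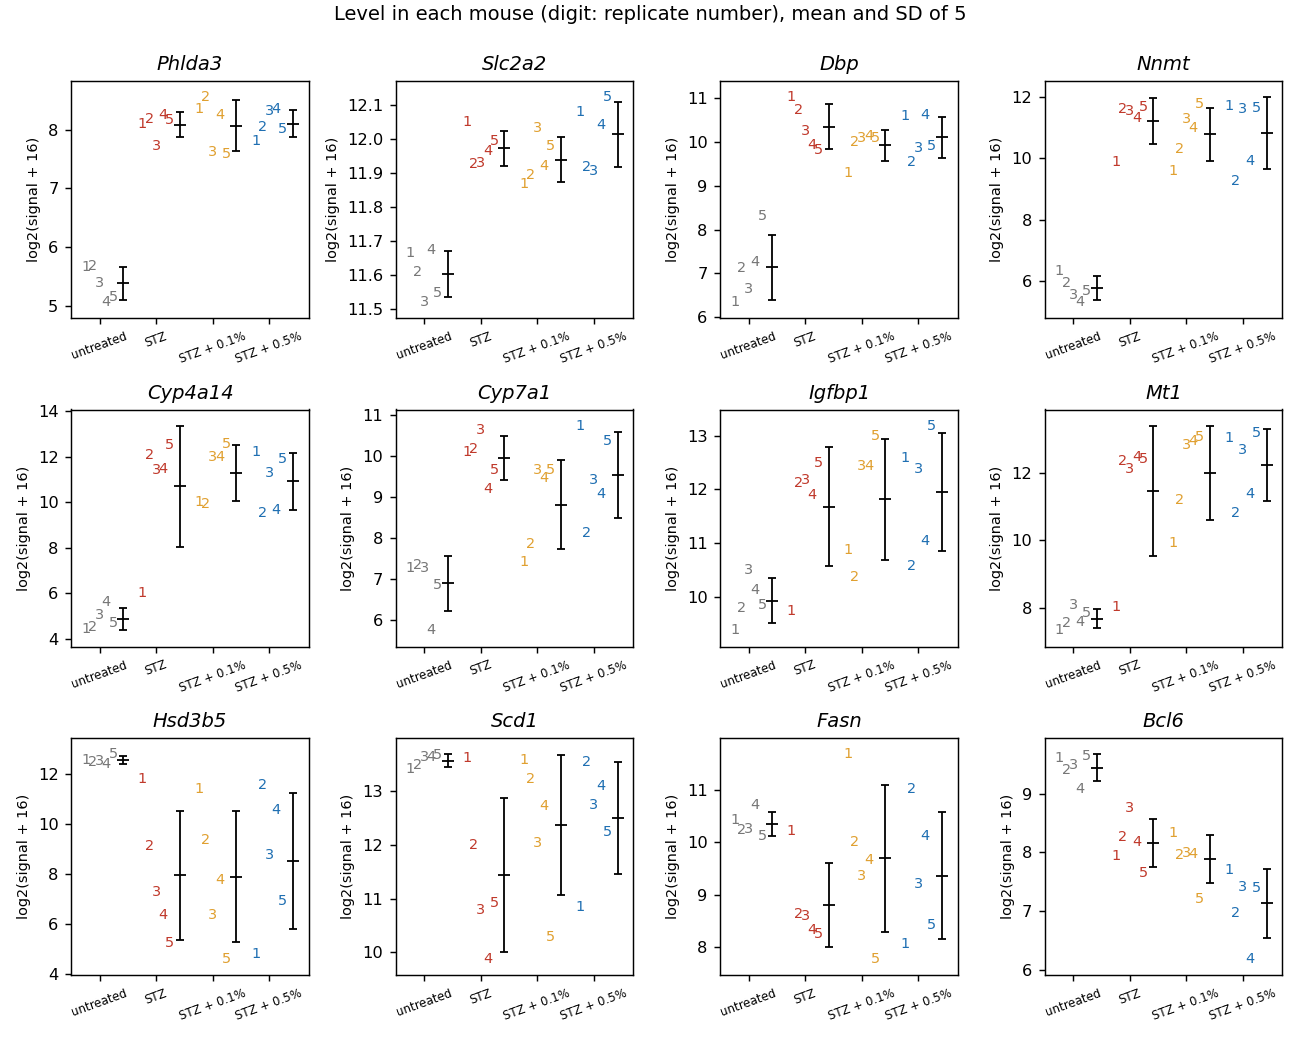
Level of 12 genes in each of the 20 mice, as log2(signal + 16), with 1 panel per gene and its own axis, which does not start at 0. Digits are replicate numbers, and the horizontal bar and whiskers are the mean and SD of 5 mice. STZ replicate 1 lies by itself for Mt1, Cyp4a14, Igfbp1, Nnmt and Fasn, and for these genes the 0.5% mice also spread widely, with replicates 2 and 4 nearest to the untreated mice.

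Stress response genes of the endoplasmic reticulum and cytosol were mostly lower in the 0.5% group than in the STZ group, without any call. Creld2, a secreted stress protein of the endoplasmic reticulum, read 1050, 369, 529, 311 and 506 in the STZ group and 154, 311, 385, 342 and 297 in the 0.5% group (-0.79 ± 0.29, unadjusted p = 0.0133, limma). Dnajb9, a co-chaperone of BiP, read 922 to 2190 and 888 to 1320 (-0.53 ± 0.21), and Ddit3, the stress factor CHOP, read 76.4 to 98.2 and 68.1 to 80.7 (-0.22 ± 0.09, with -0.085 as the mean of its 2 probe sets). The ranges of all 3 genes overlapped. Of 26 measured genes of the unfolded protein response, 22 had a negative difference, with a median of -0.13 beside 0.02 over all genes. The median was -0.07 without STZ replicate 1.

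Heat shock proteins had 14 of 16 negative differences and a median of -0.18. Bag3, a co-chaperone induced by heat shock, read 310, 186, 313, 158 and 197 in the STZ group and 123, 141, 220, 129 and 154 in the 0.5% group (-0.53 ± 0.19, unadjusted p = 0.0124, limma). The median of this list was -0.04 without 0.5% replicate 2 and -0.28 without 0.5% replicate 3. Against untreated mice, 11 of 26 genes of the unfolded protein response were called lower in the 0.5% group, where 6.2% of all genes were, and 8 in the STZ group, where 6.93% were. Of the 16 heat shock genes, 5 were called lower in the 0.5% group, and the 1 in the STZ group is near the share of all genes.

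Metallothioneins, which bind zinc and are induced by glucocorticoids, were again spread by mouse. Mt1 read 245, 5120, 4350, 5570 and 5360 in the STZ group and 8350, 1790, 6530, 2610 and 9290 in the 0.5% group, beside 146 to 255 in untreated mice. STZ replicate 1 was within the untreated range, 3 of the 5 mice on 0.5% phloridzin were above every STZ mouse, and 2 were below the other 4 STZ mice. The difference was 0.76 ± 0.73, and it was -0.10 without STZ replicate 1. Mt2 had the same order of mice at the extremes, with STZ replicate 1 lowest at 71.8 and 0.5% replicates 1 and 5 highest at 3780 and 5090. The Mt2 difference was 0.97 ± 0.79, and it was 0.075 without STZ replicate 1.

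Acute phase proteins had 20 of 24 positive differences (median 0.09). Orm3, a dim member of the orosomucoid family, went the other way at 20.6, 39.8, 30.1, 49.1 and 34.3 in the STZ group and 27.9, 2.08, 22.9, 3.06 and 12.7 in the 0.5% group (-0.84 ± 0.23, unadjusted p = 0.00145, limma). Orosomucoid genes are related in sequence, and whether their probe sets share signal was not tested.

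Clock genes were called against untreated mice in both groups, and none was called between the diabetic groups. Dbp, a clock output factor, read 2070, 1680, 1200, 964 and 894 in the STZ group and 1530, 735, 915, 1560 and 948 in the 0.5% group, beside 65.8 to 302 in untreated mice, and the diabetic groups differed by -0.24 ± 0.31 (-0.078 without STZ replicate 1). Arntl, which encodes the clock activator BMAL1, read 15.3 to 54.3 in the STZ group and 2.92 to 84.9 in the 0.5% group (0.42 ± 0.34, and 0.81 without 0.5% replicate 1). Of 19 clock genes 7 were called higher and 4 lower than in untreated mice in the 0.5% group (6.54% and 6.2% of all genes), and 8 and 4 in the STZ group (6.9% and 6.93%). The sources used here do not give the hour at which livers were taken.

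Proliferation genes were dim, and 18 of 22 had a positive difference (median 0.15). Cdk1, the mitotic kinase, read 28.2, 33.4, 33.5, 32.1 and 45.8 in the STZ group and 50.2, 86, 48.5, 48.6 and 27.2 in the 0.5% group (0.38 ± 0.17). All 0.5% mice except replicate 5 lay above every STZ mouse, and replicate 5 lay below all of them. Ccna2, a cyclin of S phase and mitosis, read 19.6 to 28.1 and 21.4 to 47.2 (0.39 ± 0.15, unadjusted p = 0.02, limma).

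Markers of the cell types that liver tissue holds were compared in the same way. Kupffer cell and macrophage markers had a summed signal of 3844 to 5451 in the STZ group and 4121 to 5251 in the 0.5% group, with 13 of 15 positive differences (median 0.07). Sinusoidal endothelial markers summed to 2497 to 3553 and 3040 to 3407 (10 of 12 positive, median 0.08), and stellate cell and fibrosis markers to 2429 to 3437 and 2590 to 3280 (8 of 14 positive, median 0.05). These ranges overlapped for each type. Neutrophil markers were near background, summing to 129.3 to 229.4 and 181.5 to 242.4 over 8 genes, and had the largest median of the lists with at least 5 genes (0.23), which was 0.05 with a stricter filter on dim genes.

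Hepatocyte markers summed to 65030 to 90450 in the STZ group and 77510 to 84990 in the 0.5% group (7 of 8 positive, median 0.05). Pericentral markers had 10 of 16 and periportal markers 4 of 13 positive differences. Pancreas markers had 4 measured genes, and the brightest, Cela1, an elastase that liver also expresses, differed by 0.02 ± 0.29. No marker of any cell type list was called between the 0.5% and STZ groups. The part of these markers in the other results was not tested.

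**Figure D4:**
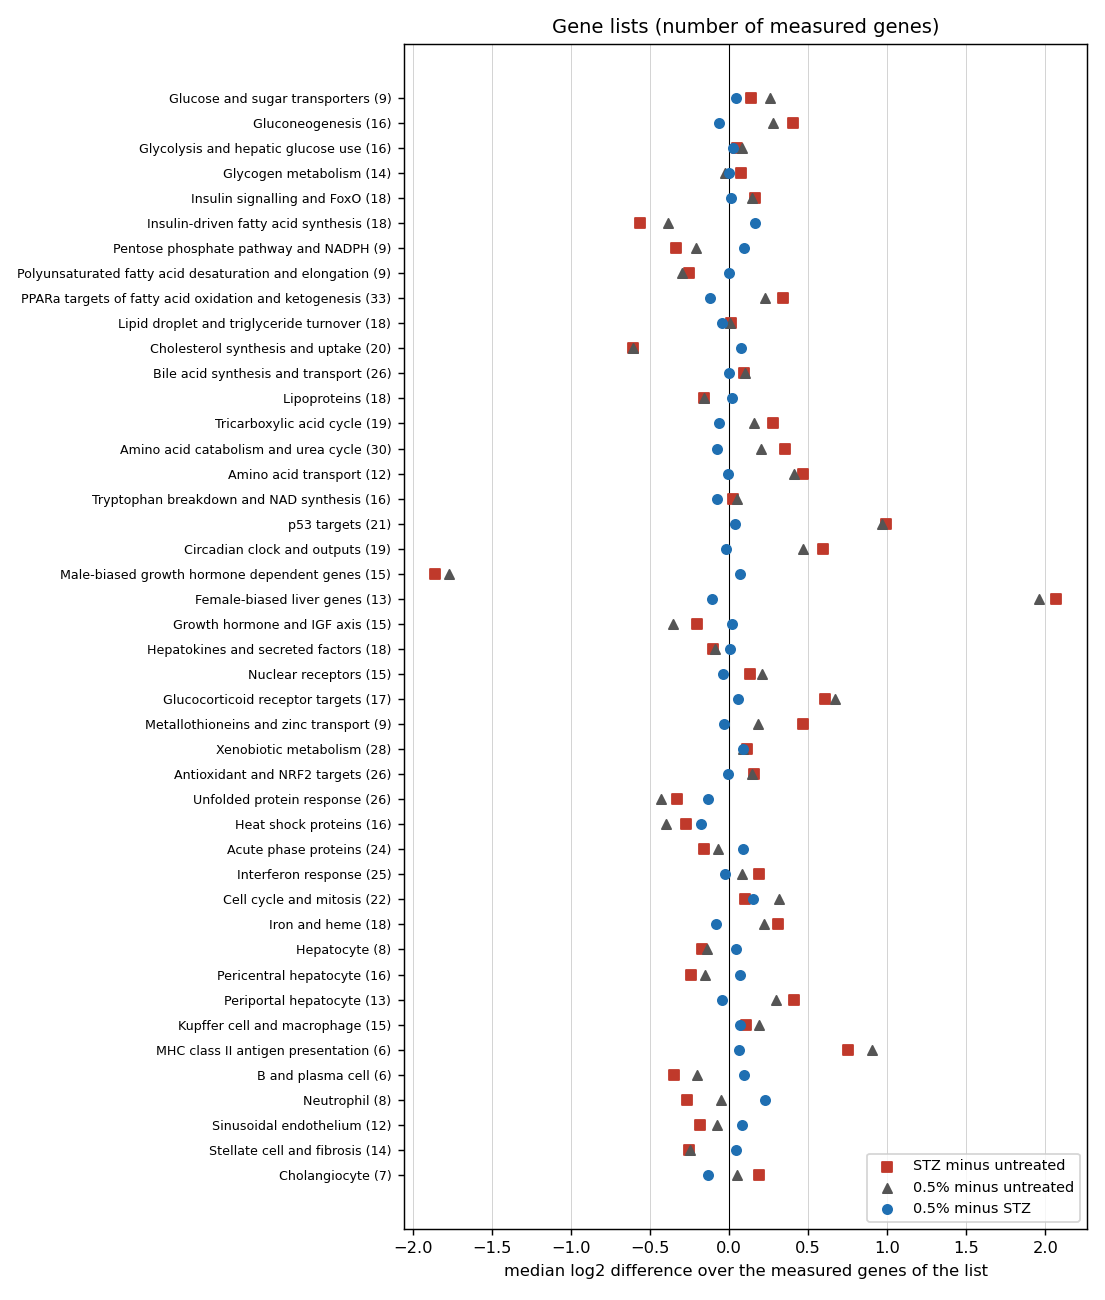
Median log2 difference of each list of 5 or more measured genes (horizontal axis), for 0.5% phloridzin minus STZ (blue circles), 0.5% phloridzin minus untreated (grey triangles) and STZ minus untreated (red squares). These comparisons share arrays, so their positions are not independent. The blue circles lie between -0.18 (heat shock proteins) and 0.23 (neutrophil), and the median over all genes was 0.02.

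The direction of a list should be read with its stability. Array weights were not applied to the lists. Over the alternatives that were, the median of 21 of 48 lists kept one sign and that of 27 turned it at least once. These alternatives use mostly the same arrays, so a kept sign is not independent support for a direction. Lists that kept their sign included fatty acid synthesis (0.055 to 0.297), PPARα targets (-0.166 to -0.087), the unfolded protein response (-0.205 to -0.068), heat shock proteins (-0.281 to -0.043) and cell cycle (0.096 to 0.241). Of the other lists named above, those of glucose transporters, p53 targets, gluconeogenesis, insulin signalling, cholesterol synthesis, bile acids, male-biased, female-biased and clock genes turned their sign, as did the hepatocyte, stellate cell and pancreas markers. The growth hormone and IGF axis (-0.0499 to 0.0654) and the list of metallothioneins and zinc transport (-0.0915 to 0.0189) turned it as well. Centring each array on its median alone moved the p53 median to -0.0038 and that of the glucose transporters to -0.0024.

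The 10 genes with the smallest p in each direction were examined next, although none was called. They were chosen on the STZ and 0.5% arrays, so their comparisons with untreated mice reuse those values and are not independent support. The higher genes were Knstrn, Tmem131l, Arhgap32, Ulk1, Mid1, Runx1, Foxq1, Bcl7a, Icam1 and Bmf. Knstrn, a kinetochore protein, had the smallest p of all genes: 2.36, 6.92, 5.63, 3.06 and 7.02 in the STZ group and 14.5, 23.3, 12.9, 20.9 and 12.4 in the 0.5% group (0.64 ± 0.14, unadjusted p = 0.000221, adjusted p = 0.863, limma). The groups did not overlap, but all signals were near the median of an array, and the difference was 0.20 when its 5 probe sets were averaged.

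Brighter genes of this set were Ulk1, Tmem131l and Icam1. Ulk1, the kinase that starts autophagy, read 363, 376, 276, 357 and 355 in the STZ group and 444, 457, 401, 440 and 459 in the 0.5% group (0.34 ± 0.08, unadjusted p = 0.000599, limma). Every 0.5% mouse was above every mouse of the STZ, 0.1% (348 to 381) and untreated (305 to 330) groups. Ulk1 was called higher than in untreated mice in the 0.5% group (0.45, adjusted p = 0.00199), and the direct difference from 0.1% was 0.24 ± 0.08 (unadjusted p = 0.0104, adjusted p = 0.753, limma). Both of its probe sets had the same direction.

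Icam1, an adhesion molecule for leukocytes, read 48.1, 77.8, 71.8, 83.4 and 74.3 in the STZ group and 99, 101, 109, 107 and 113 in the 0.5% group (0.50 ± 0.13, unadjusted p = 0.00109). It was called higher than in untreated mice in the 0.5% group (0.74, adjusted p = 0.00125, limma), and its difference from STZ was 0.39 without STZ replicate 1. Tmem131l read 85.3 to 123 in the STZ group and 134 to 184 in the 0.5% group (0.61 ± 0.15), and the difference was 0.21 as the mean of its 3 probe sets. Foxq1, a forkhead factor, read 27.6 to 40.2 and 45.3 to 96.4 (0.68 ± 0.17), and in the 0.1% group it read 53.9 to 69.3.

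The lower genes were Gtpbp8, Bcl6, Pigbos1, Them7, Tmem39a, Tgds, Gm26910, Ahr, Orm3 and Ripor2. Ahr, the receptor for dioxins and plant-derived ligands, read 307, 317, 357, 365 and 324 in the STZ group and 284, 225, 191, 253 and 283 in the 0.5% group, beside 200 to 256 in untreated mice. The STZ and 0.5% mice did not overlap (-0.42 ± 0.11, unadjusted p = 0.0014, limma). Ahr was called higher than in untreated mice in the STZ group (0.51, adjusted p = 0.00594), and in the 0.5% group the difference from untreated was 0.08 (adjusted p = 0.692, limma). Because Ahr was chosen by its p between 0.5% and STZ, this contrast follows in part from the choice and does not show a return to the untreated level. Its 2 probe sets had opposite directions, with -0.20 as their mean. Cyp1a2, a classical target of this receptor, differed by 0.15 ± 0.15.

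Gtpbp8 read 93.8 to 116 in the STZ group and 49.4 to 78.5 in the 0.5% group (-0.55 ± 0.13), and 55 to 78.1 in the 0.1% group. Tgds, a sugar nucleotide dehydratase, read 267 to 321 in the STZ group, 204 to 249 in the 0.5% group and 214 to 265 in untreated mice (-0.36 ± 0.10). Them7 read 344 to 466 and 252 to 322 (-0.42 ± 0.11), and Pigbos1 334 to 468 and 210 to 313 (-0.51 ± 0.13). For each of these 4 genes the STZ and 0.5% groups did not overlap. Averaging all probe sets of a gene brought Gtpbp8 to -0.18, Tmem39a to -0.21, Ripor2 to -0.01, Gm26910 to -0.22, Runx1 to 0.08, Bcl7a to 0.10, Mid1 to 0.19, Arhgap32 to 0.22 and Bmf to 0.28. With Knstrn, Tmem131l and Ahr, that made 12 of the 20 genes whose difference shrank by over 1.5 times.

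**Figure D5:**
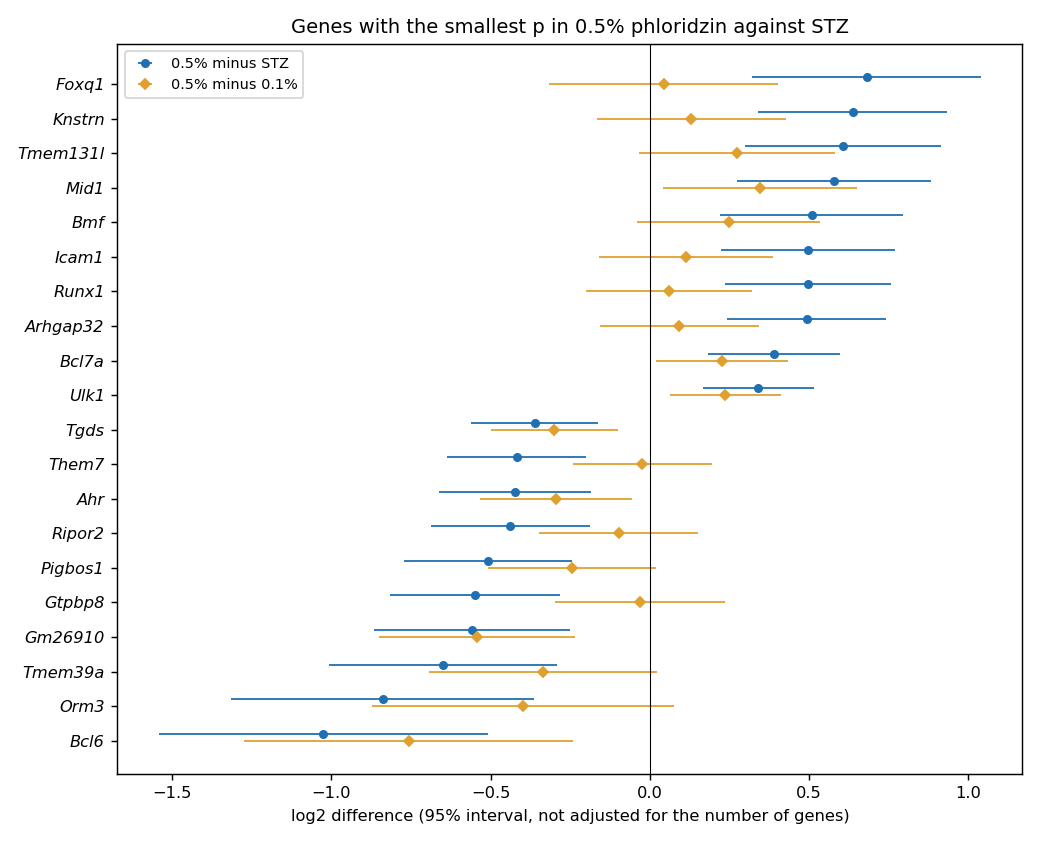
Differences with 95% intervals for the 20 genes with the smallest p in 0.5% phloridzin minus STZ (blue circles), beside 0.5% minus 0.1% phloridzin (orange diamonds), on the log2(signal + 16) scale. The blue intervals exclude 0 because the genes were chosen by their p, and no gene was called. Both comparisons use the same 0.5% arrays.

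The next question was whether the 0.5% and 0.1% diets differed from each other, tested directly. The count of called genes was 0 of 12952 (0%), and the smallest adjusted p was 0.611 (limma). At an unadjusted p under 0.05 there were 839 genes (6.48%), of which 549 (4.24%) were higher and 290 (2.24%) lower at 0.5%. The mice did not overlap for 75 genes (0.579%) that were higher and 29 (0.224%) that were lower. The ordinary linear model of these 10 arrays also called 0 genes, with 728 at an unadjusted p under 0.05. Without 0.1% replicate 4, whose hybridisation controls stood apart, 0 genes were called and 632 were at an unadjusted p under 0.05.

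The smallest p of this comparison was that of Lin54, a subunit of the complex that represses cell cycle genes. It read 77.6, 58.5, 65.5, 65.9 and 79 in the 0.1% group and 115, 104, 106, 91.7 and 111 in the 0.5% group, without overlap (0.52 ± 0.10, unadjusted p = 4.71e-05, adjusted p = 0.611, limma). Against STZ its difference was 0.21 ± 0.10. Ccdc82 read 31 to 54.7 in the 0.1% group and 64.4 to 79.7 in the 0.5% group (0.54 ± 0.11), also without overlap, and its difference from STZ was 0.30 ± 0.11. Afap1l2, an adaptor protein, and Cox6a2, a subunit of cytochrome c oxidase in muscle, were dim, with differences of 0.75 ± 0.16 and 0.71 ± 0.16.

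The genes with the smallest p that were lower at 0.5% than at 0.1% were E2f7, Rara, Ccdc51 and Xrcc3. Rara, the retinoic acid receptor alpha, read 26.3 to 33.5 in the 0.1% group and 1.79 to 21.2 in the 0.5% group, and E2f7, a repressor of the E2F family, read 14.9 to 21.8 and 8.2 to 12.7. The differences of these 4 genes ran from -0.86 (Rara) to -0.40 (E2f7). In the 0.5% group Rara, E2f7 and Xrcc3 (1.99 to 15.7) had signals near or below the array median, and Ccdc51 read 17.8 to 43.7.

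The metabolic genes described above were also compared between the diets. Scd1 differed by 0.13 ± 0.62, Fasn by -0.33 ± 0.57, Pck1 by -0.26 ± 0.18, Igfbp1 by 0.13 ± 0.55 and Cyp7a1 by 0.73 ± 0.49. Each of these differences had an interval that held 0. The interval of Scd1 (-1.16 to 1.41) spanned 2-fold in both directions, and that of Fasn (-1.51 to 0.86) spanned 2-fold toward lower values only.

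Several metabolic lists held more genes at an unadjusted p under 0.05 that were lower at 0.5% than the 2.24% of all genes, with 0 called. Among them were 6 of 8 hepatocyte markers (median -0.314), 6 of 18 lipoprotein genes (-0.211), 8 of 33 PPARα targets (-0.162) and 7 of 30 genes of amino acid catabolism (-0.197). The 0.1% array with the high hybridisation controls, replicate 4, also had the highest Apoa1 signal of the 0.1% group, at 26800 beside 13000 to 17600. Without it, 1.39% of all genes were lower at an unadjusted p under 0.05, and the counts were 0 hepatocyte markers (median -0.183), 2 lipoprotein genes (-0.133), 4 PPARα targets (-0.13) and 2 amino acid genes (-0.118). With quantile normalization of all arrays, 2.15% of all genes were lower, and the counts were 0 (-0.013), 1 (-0.06), 5 (-0.085) and 2 (-0.064). Further lists above 2.24% with all arrays included xenobiotic metabolism (5 of 28), acute phase proteins (5 of 24) and periportal markers (3 of 13). Their counts were 1, 0 and 1 without 0.1% replicate 4, and the same with quantile normalization. In the other direction, 20 of 22 cell cycle genes had a positive difference in each of these 3 fits, with medians of 0.182, 0.145 and 0.159.

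The distance of both groups from untreated liver was set side by side. In the 0.5% group 1650 genes (12.7%) were called against untreated mice, 847 (6.54%) higher and 803 (6.2%) lower, and in the STZ group 1791 (13.8%), 894 (6.9%) higher and 897 (6.93%) lower. Differences of at least 2-fold in signal + 16 were called for 160 higher and 140 lower genes in the 0.5% group. In the STZ group there were 182 and 142. These comparisons use the same untreated arrays, so the counts are not independent and their likeness is not a result. The count in the 0.5% group depended on single mice: it was 940 without 0.5% replicate 1, 984 without 0.5% replicate 5, 1089 without untreated replicate 1 and 2188 without 0.5% replicate 2. That of the STZ group was 1999 without STZ replicate 1 and 1175 without STZ replicate 5.

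Several lists had calls against untreated mice in both groups. Of all genes, 6.54% were called higher and 6.2% lower in the 0.5% group, and 6.9% and 6.93% in the STZ group. Amino acid catabolism had 8 of 30 genes called higher in the 0.5% group and 12 in the STZ group, and amino acid transport 6 and 7 of 12. Of 20 genes of cholesterol synthesis and uptake, 4 were called lower and 1 higher in the 0.5% group, and 6 lower in the STZ group. The 1 called higher is near the share of all genes. Antigen presentation by MHC class II had 4 and 3 of 6 genes called higher, among them Cd74, the invariant chain, at 1.09 in the 0.5% group (adjusted p = 0.000412, limma). Ighm, the heavy chain of IgM, was called lower in both, with signals of 54.1 to 105 in the 0.5% group, 49.9 to 88.4 in the STZ group and 296 to 417 in untreated mice. Between the 0.5% and STZ groups each of these lists had 0 calls.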

How the data were processed

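Total liver RNA of 20 mice was hybridised to Affymetrix mouse arrays, 1 array per mouse. The deposited values are linear signal intensities. A scaling to a trimmed mean near 100 per array was inferred from the values themselves. The sources used here do not name the software. Gene names came from the platform annotation: 34945 of 45101 probe sets had 1 gene, and the probe set with the highest mean signal stood for each of 18193 genes. Genes with a mean signal at or above the 40th percentile (9.00) were kept (12952). Values were log2(signal + 16), and limma 3.58.1 in R 4.3.3 fitted the means of the 4 groups on all arrays. A gene was called at a Benjamini-Hochberg adjusted p under 0.05. The fit was tested on simulated data.

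The groups compared, the gene lists and the panel of genes were chosen with earlier results of these data known. Genes were named if they were in the panel, among the 10 with the smallest p in each direction, among the 4 in each direction between the diets, or among the members of a list with the smallest p. Of the listed genes, 87 were not analysed here and 36 were under the filter. Alternatives were another pseudocount, filter, normalization and probe set rule, array weights, a replicate block, a 1.5-fold threshold and leaving out each array. No sequences are shown, since no gene was called.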

Additional observations from a re-analysis of the deposited data

Results flagged for a closer look

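In groups of 5 mice, a value was examined when its gap to the nearest other mouse was a large share of the group's range (Dixon ratio above 0.71, which chance gives in about 1 of 20 groups). Among 98 groups of 49 genes, 12 passed, and 9 of them were STZ replicate 1, the STZ mouse most like untreated mice. Values are log2(signal + 16). STZ replicate 1 was lowest for Mt1 (ratio 0.92, 8.03 against 12.09 to 12.45), Ccdc82 (0.835, 5.82 against 6.23 to 6.31) and Cyp4a14 (0.829, 6.02 against 11.41 to 12.52). It was also lowest for Nnmt (0.795), Igfbp1 (0.784), Ppargc1a (0.738) and Icam1 (0.717). It was highest for Fasn (0.809, 10.21 against 8.26 to 8.63) and Srebf1 (0.714). STZ replicate 3 was lowest for Ulk1 (0.817, 8.19 against 8.54 to 8.61), and without it the Ulk1 difference was 0.27. In the 0.5% group, replicate 1 was highest for Cpt1a (0.739) and lowest for the dim Slc5a1 (0.824).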

How the results depend on the processing

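The count of genes called between 0.5% phloridzin and STZ was 0 under all 22 settings tried with limma, with the smallest adjusted p between 0.503 and 1 and 1 to 835 genes at an unadjusted p under 0.05. Between 0.5% and 0.1% it was 0 in each setting run, with a smallest adjusted p of 0.16 without a filter. Against untreated mice, the count in the 0.5% group was 2616 with array weights, 71 against a 1.5-fold threshold and 940 to 2188 when 1 array was left out. In the STZ group it was 2862, 80 and 1175 to 1999. Centring arrays on their median gave 1041 higher and 720 lower genes in the STZ group (59.1% higher, beside 49.9%). Of 4714 differences of named genes under alternatives, 90 moved by more than the standard error of the difference in the main fit, and none was called. Replicate numbers name different mice and do not pair them (correlations of same-numbered deviations from -0.351 to 0.375 between 0.5% and STZ and from -0.404 to 0.465 between 0.5% and 0.1%). With the replicate block, 0 genes were called between 0.5% and STZ and between 0.5% and 0.1%, 1854 in the 0.5% group against untreated and 1930 in the STZ group. The number of arrays limits the precision, and dim genes near the array median have the least. The lists between the diets without 0.1% replicate 4 and with quantile normalization were added after seeing the data.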
